A study of Mus musculus with 13 samples.

Results

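Interferon-stimulated genes are the genes that cells switch on when they sense interferon. A list of 39 of them was followed in mouse thymocytes, and 35 of the 39 had a probe set that names that gene alone, among 19752 genes measured that way. Members were taken by gene symbol from the platform annotation, and the brightest probe set stood for a gene with more than 1. Isg15, Gbp2 and Igtp were covered only by probe sets that name a further gene as well, and no probe set of Ifi44 was listed, so these 4 have no value here. The study measured 13 samples of thymocytes sorted from 2-week-old mice of mixed sex, each on its own Affymetrix gene array. V2 samples are immature γδ thymocytes, sorted as positive for TCRδ and the Vγ2 chain, high for the immaturity marker HSA and negative for CD4 and CD8. DP samples are αβ-lineage thymocytes positive for CD4 and CD8. Each population came from wild-type (WT) mice and from mice labelled as conditional knockouts (cKO) of Sox4, an HMG box transcription factor. The Cre driver, the cells in which it acts and the strain background are not given in the sources used here.

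Type I interferons bind the receptor formed by IFNAR1 and IFNAR2, whose kinases JAK1 and TYK2 act on STAT2. STAT2 and IRF9 are subunits of a complex called ISGF3, which binds the interferon-stimulated response element (ISRE). Interferon-γ signals through its own receptor to GAS sites and induces IRF1 and guanylate-binding proteins. Many of the products act against viruses, and some, such as USP18, damp signalling from the receptor. The thymus is known for low, constant type I interferon production in the absence of infection.

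The promoter sequences are shown because the ISRE is the element that ISGF3 binds at genes of this kind. In RefSeq promoter windows (assembly GRCm38.p6, 250 bases before to 50 after each start), 30 of the 39 genes had a window. The ISRE core (GAAA, 2 bases of any kind, GAAA), searched on both strands, was present for 15 of these 30, against 1079 of 27025 genes (3.99%). Isg15, Gbp2 and Igtp, which have no value here, are among the 15, and Ifi44 is among the 30. The counts by call leave these genes out. Members without a call carried the ISRE core too: 8 of 19 with a window, against 4 of 7 called, in wild-type V2 over DP. In knockout mice the counts were 5 of 13 and 7 of 13, and between the V2 title sets 4 of 12 and 8 of 14. Irf1, Irf9 and Xaf1, called in wild type, had windows without the core. The GAS core TTCNNNGAA was present for 7 of 30 (23.3%), against 9.55% of all genes. The stretches below run 5′ to 3′ on the gene's strand, end before the annotated start, and carry the ISRE letters in capitals. Matches on the other strand read as the reverse complement, and neighbouring matches in Irgm1, Gbp3 and Bst2 overlap. Ifit1 lies at chr19:34640765-34640833 on the plus strand, Ifit3 at chr19:34583353-34583436 (plus), Ddx60 at chr8:61928014-61928086 (plus) and Irgm1 at chr11:48871421-48871470 (minus). Oas3 lies at chr5:120777705-120777754 (minus) and Gbp3 at chr3:142559979-142560034 (plus). Bst2 at chr8:71537567-71537622 (minus) and Stat2 at chr10:128270256-128270305 (plus) are given as members with the same motif whose level is not called in any comparison between populations.
Ifit1: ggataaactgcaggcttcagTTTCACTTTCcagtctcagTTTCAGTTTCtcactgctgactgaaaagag
Ifit3: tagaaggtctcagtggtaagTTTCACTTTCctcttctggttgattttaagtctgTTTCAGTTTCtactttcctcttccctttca
Ddx60: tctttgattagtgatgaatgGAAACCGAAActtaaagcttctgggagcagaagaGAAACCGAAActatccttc
Irgm1: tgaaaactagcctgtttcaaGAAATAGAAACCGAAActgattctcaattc
Oas3: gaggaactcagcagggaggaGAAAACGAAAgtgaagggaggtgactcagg
Gbp3: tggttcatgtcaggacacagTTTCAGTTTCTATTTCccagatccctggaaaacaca
Bst2: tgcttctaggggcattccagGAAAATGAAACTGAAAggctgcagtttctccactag
Stat2: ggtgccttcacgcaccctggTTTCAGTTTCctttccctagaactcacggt
A match describes these letters only. It does not show that a factor bound there.

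The titles give 4 arrays each to V2 WT and V2 cKO, 2 to DP WT and 3 to DP cKO. The V2 titles begin with V2imm or with immV2, and the labels do not say what this difference marks, so the arrays are grouped into title sets by those names. The array labelled V2 WT replicate 5 (immV2) carried the DP markers (mean log2 intensity 11.39 over 8 genes, against 7.38 to 7.82 on the other V2 arrays). The array labelled DP cKO replicate 5 carried the γδ markers (11.02 over 7 genes, against 6.47 to 6.70 on the other DP arrays). Both arrays are shown apart, and the comparisons rest on the other 11: 3 V2 WT (2 V2imm and 1 immV2), 4 V2 cKO (2 and 2), 2 DP WT and 2 DP cKO. Sox4 measured 8.71, 8.64 and 9.68 in V2 WT, 8.07, 9.60, 8.11 and 8.23 in V2 cKO, 9.37 and 8.55 in DP WT and 8.74 and 8.68 in DP cKO, so Sox4 was not low on every knockout array: V2 cKO replicate 5 (V2imm) measured 9.60, and both DP cKO arrays lay within the DP WT range. Which part of Sox4 the allele removes is not given, so the probe set may not check the deletion. No label says that replicates were separate animals, so a p-value here reflects the scatter among arrays, part of which can be technical. Median intensity per array lay between 122.2 and 137.2, and precision is limited by the few arrays.

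Values below are log2 intensities. V2 WT values are given in the order V2imm replicate 4, V2imm replicate 5 and immV2 replicate 3. V2 cKO values follow as V2imm replicates 4 and 5, then immV2 replicates 3 and 4. DP WT values are replicates 3 and 5, and DP cKO values replicates 3 and 4. Averaged over the 35 genes, the level was 7.99 ± 0.323 (SD, n = 3) in V2 WT, 8.35 ± 0.556 (n = 4) in V2 cKO, 7.37 ± 0.012 (n = 2) in DP WT and 7.46 ± 0.223 (n = 2) in DP cKO. The lowest V2 array (7.74) lay above the highest DP array (7.62). In sorted bulk RNA, more cells expressing a gene and more RNA per cell cannot be told apart.

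**Figure D1:**
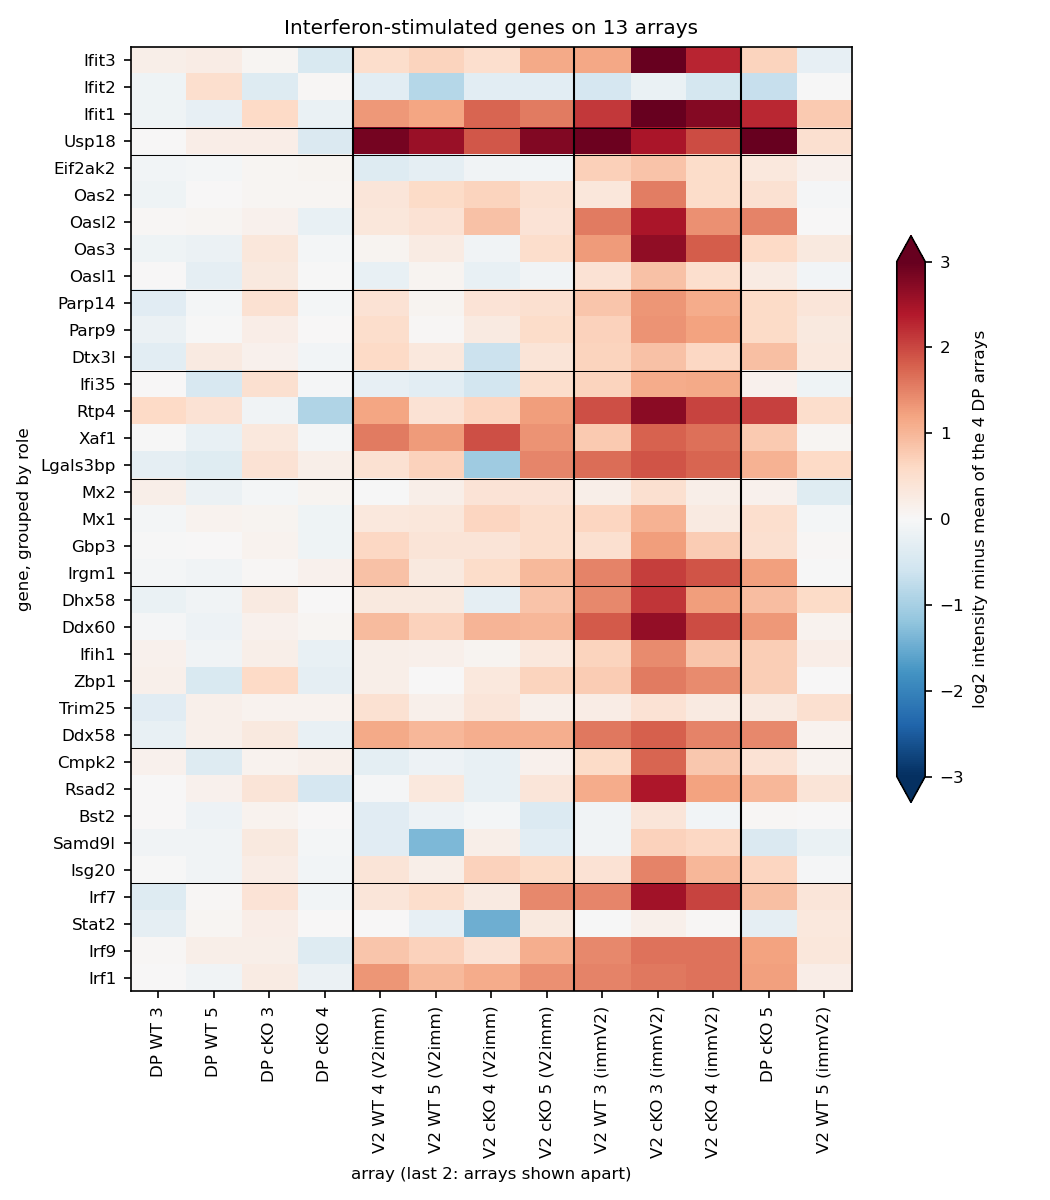
Log2 intensity of each of the 35 genes (rows, grouped by role) on each of 13 arrays (columns), minus the mean of that gene over the 4 DP arrays. Red is higher, blue is lower, and the colour scale ends at 3 log2 units on either side. Black lines set off the DP, V2imm and immV2 arrays and the 2 arrays shown apart. Most V2 columns are redder than the DP columns, and the immV2 columns are reddest.

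The first comparison asked how interferon-stimulated genes differ between immature Vγ2 cells and DP cells of wild-type mice. DP titles carry neither V2 style, so DP arrays could not be matched to a title set. In either genotype, a population difference therefore cannot be fully told apart from whatever the title styles mark. Differences between groups come from a fit that weights the V2 title sets equally, so they can depart from differences between the listed values. In V2 WT over DP WT 8 of 35 genes rose and 0 fell with this adjustment. In both genotypes fewer genes were called without it, as given with the dependence on processing. The background was 3.2% of 19752 genes called higher and 1.67% called lower (limma, Benjamini-Hochberg adjusted p below 0.05 over all genes). Usp18, Ifit1, Ddx60, Ddx58, Irf1, Xaf1, Irgm1 and Irf9 were the 8, by 1.02 to 2.69 log2 units. The estimate lay above 0 for 32 of 35 genes (45.0% of all genes), with a median of 0.641, while the median over all genes was -0.023.

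Among the transcription factors, Irf1 and Irf9 rose and Irf7 and Stat2 did not pass. Irf1, an interferon-γ-induced activator, measured 9.65, 9.31 and 9.82 in V2 WT, 9.46, 9.71, 9.92 and 9.96 in V2 cKO, 8.35 and 8.24 in DP WT and 8.59 and 8.17 in DP cKO. V2 and DP arrays did not overlap, and the difference was 1.36 (SE 0.20, adjusted p = 0.000947). The other Irf1 probe set, which is dimmer, ran from 7.16 to 7.78 on V2 and from 6.81 to 7.05 on DP arrays, also without overlap. Irf9, the DNA-binding subunit of ISGF3, measured 8.91, 8.76 and 9.53 in V2 WT, 8.52, 9.17, 9.71 and 9.70 in V2 cKO, 8.12 and 8.25 in DP WT and 8.24 and 7.70 in DP cKO. Its V2 WT minus DP WT difference was 1.02 (SE 0.23, adjusted p = 0.0188), again with every V2 array above every DP array. Stat2, the ISGF3 subunit with the transactivation domain, measured 8.91, 8.67 and 8.90 in V2 WT, 7.45, 9.19, 9.06 and 8.94 in V2 cKO, 8.65 and 8.97 in DP WT and 9.10 and 8.92 in DP cKO. Its V2 and DP arrays overlapped, with a difference of 0.09 (SE 0.38, adjusted p = 0.987) and a 95% interval of -0.72 to 0.91. V2 cKO replicate 4 (V2imm) was the low Stat2 array. Irf7, which amplifies type I interferon production, measured 7.71, 7.88 and 8.81 in V2 WT, 7.63, 8.80, 9.88 and 9.37 in V2 cKO, 6.97 and 7.39 in DP WT and 7.77 and 7.28 in DP cKO. In V2 WT against DP WT it differed by 1.16 (SE 0.31, adjusted p = 0.0515), just short of the threshold, and 2 of the 7 V2 arrays lay within the DP range.

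Of the 6 nucleic acid sensors and partners, all had an estimate above 0 in V2 WT over DP WT, and 2 rose. Ddx58 encodes RIG-I. Its level was 9.82, 9.68 and 10.28 in V2 WT, 9.77, 9.76, 10.47 and 10.18 in V2 cKO, 8.45 and 8.84 in DP WT and 8.97 and 8.47 in DP cKO. The 7 V2 arrays all lay above the 4 DP arrays, and V2 WT exceeded DP WT by 1.37 (SE 0.21, adjusted p = 0.00147). Ddx60, a helicase linked to RIG-I signalling, measured 6.51, 6.25 and 7.40 in V2 WT, 6.57, 6.56, 8.19 and 7.51 in V2 cKO, 5.52 and 5.41 in DP WT and 5.69 and 5.61 in DP cKO. It rose by 1.46 (SE 0.18, adjusted p = 0.000294), from values below the lower quartile of the array on all 4 DP arrays. Ifih1, which encodes MDA5, measured 6.71, 6.69 and 7.20 in V2 WT, 6.61, 6.85, 7.96 and 7.38 in V2 cKO, 6.68 and 6.44 in DP WT and 6.73 and 6.31 in DP cKO. Over both genotypes, Ifih1 arrays overlapped between the populations. In wild type every V2 array lay above both DP arrays, by a narrow gap, and the difference was 0.44 (SE 0.20, adjusted p = 0.355). Dhx58, which encodes LGP2, differed by 1.04 (SE 0.30, adjusted p = 0.0679), Zbp1, a sensor of Z-form nucleic acid, by 0.62 (SE 0.27), and Trim25, a ubiquitin ligase acting on RIG-I, by 0.38 (SE 0.21). None of these 3 passed.

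Usp18, the protease that removes ISG15 from proteins and restrains the interferon receptor, showed the largest difference of the 35 genes. It measured 10.35, 10.06 and 10.41 in V2 WT, 9.33, 10.26, 9.92 and 9.43 in V2 cKO, 7.49 and 7.68 in DP WT and 7.68 and 7.05 in DP cKO. Every V2 array lay above every DP array. V2 WT exceeded DP WT by 2.69 (SE 0.29, adjusted p = 6.93e-05), a 6.46-fold difference in intensity. Isg15 itself, the modifier that Usp18 removes, has no probe set of its own here.

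The 3 Ifit genes, whose products bind foreign RNA, lie side by side on chromosome 19 and did not move together. Ifit1 measured 7.45, 7.34 and 8.26 in V2 WT, 7.90, 7.69, 9.61 and 8.89 in V2 cKO, 6.01 and 5.89 in DP WT and 6.74 and 5.95 in DP cKO. V2 WT exceeded DP WT by 1.94 (SE 0.26, adjusted p = 0.000487), with no overlap between populations. Ifit3 measured 6.17, 6.32 and 6.80 in V2 WT, 6.15, 6.78, 8.85 and 7.93 in V2 cKO, 5.83 and 5.87 in DP WT and 5.69 and 5.19 in DP cKO. Its V2 arrays also lay above all DP arrays, yet the wild-type difference of 0.81 (SE 0.34, adjusted p = 0.273) did not pass. Ifit2 measured 7.66, 7.12 and 7.46 in V2 WT, 7.64, 7.66, 7.77 and 7.44 in V2 cKO, 7.84 and 8.46 in DP WT and 7.57 and 7.99 in DP cKO. It was the 1 gene of 35 for which every V2 WT array lay below both DP WT arrays, with a difference of -0.74 (SE 0.23, adjusted p = 0.1) that did not pass. Near-identical Ifit copies exist in the mouse, and probes may read more than 1 of them.

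Irgm1, an immunity-related GTPase, rose as well. Its level was 8.48, 7.89 and 9.08 in V2 WT, 8.15, 8.57, 9.68 and 9.49 in V2 cKO, 7.53 and 7.50 in DP WT and 7.63 and 7.72 in DP cKO. All V2 arrays lay above all DP arrays, and the wild-type difference was 1.15 (SE 0.21, adjusted p = 0.00529). Gbp3, a guanylate-binding protein, did so with a smaller difference of 0.54 (SE 0.19, adjusted p = 0.174) that did not pass. Mx1 and Mx2, which encode dynamin-like antiviral GTPases, were below the array median on all 11 arrays. Their differences were 0.44 (SE 0.19) and 0.12 (SE 0.15), and on dim probe sets such values understate any change. Xaf1, an interferon-induced gene linked to cell death, measured 8.65, 8.36 and 7.86 in V2 WT, 9.002, 8.42, 8.84 and 8.73 in V2 cKO, 7.07 and 6.85 in DP WT and 7.38 and 7.01 in DP cKO. It rose by 1.29 (SE 0.24, adjusted p = 0.00497), and every V2 array lay above every DP array.

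No gene of the OAS and PKR group, the PARP9 and DTX3L group or the other antiviral effectors passed in the wild-type comparison. The 4 OAS family genes, of the 2′,5′-oligoadenylate synthetase family, differed by 0.94 (Oasl2), 0.96 (Oas3), 0.52 (Oas2) and 0.35 (Oasl1). Eif2ak2, which encodes the RNA-activated kinase PKR, differed by 0.24 (SE 0.14). Parp14, Dtx3l and Parp9, neighbours on chromosome 16 that act in ADP-ribosylation and ubiquitination, differed by 0.76, 0.66 and 0.64. Parp14 had an adjusted p of 0.0508. Bst2, which encodes the virus-tethering protein tetherin, differed by -0.08 (SE 0.19, adjusted p = 0.97), with V2 values of 7.67 to 8.46 against DP values of 7.94 to 8.20. Lgals3bp, a secreted glycoprotein, had a large but poorly determined difference of 1.48 (SE 0.51, adjusted p = 0.148).

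Between the populations in knockout mice, 16 of 35 genes were called higher and 0 lower, where 3.5% of all genes were called higher and 1.94% lower. The median difference was 0.756 against -0.009 over all genes. The 8 genes called in wild-type mice were all among these 16, which makes 8 of 8 of the first list and 8 of 16 of the second. The 2 comparisons set different arrays against each other, but 1 fit with a shared title set term and shared spread gave both. Their overlap is therefore not independent. The other 8 were Ifit3, Isg20, Irf7, Oas3, Oasl2, Parp9, Rtp4 and Gbp3. Rtp4, which encodes an interferon-induced chaperone of receptors, measured 8.05, 7.30 and 8.79 in V2 WT, 7.51, 8.12, 9.58 and 8.89 in V2 cKO, 7.45 and 7.28 in DP WT and 6.76 and 5.95 in DP cKO. V2 cKO exceeded DP cKO by 2.17 (SE 0.28, adjusted p = 0.000415), and V2 WT exceeded DP WT by 0.90 (SE 0.30, adjusted p = 0.142). The 2 DP cKO arrays held the lowest Rtp4 values. Ifit3 rose by 1.98 (SE 0.32, adjusted p = 0.00179) and Irf7 by 1.39 (SE 0.29, adjusted p = 0.0114) in this comparison. Usp18 (2.37), Ifit1 (2.18), Ddx60 (1.55), Xaf1 (1.55), Irf1 (1.38), Ddx58 (1.32), Irf9 (1.31) and Irgm1 (1.29) lay close to their wild-type differences. Passing in 1 genotype and not in the other is no difference between genotypes, and the test of that difference is given with the DP genotype comparison.

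**Figure D2:**
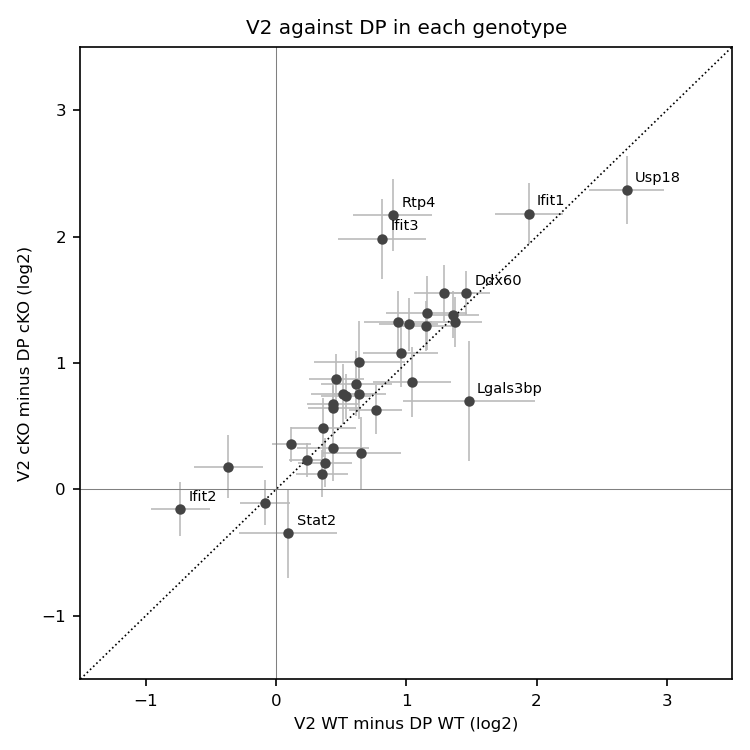
Difference between V2 and DP arrays (log2) for each of the 35 genes in WT mice (horizontal axis) and cKO mice (vertical axis), with bars of 1 SE. The dotted line marks equal differences. Usp18 and Ifit1 stand furthest up the line, and Rtp4 and Ifit3 lie above it.

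Over both genotypes, 13 of 35 genes had all 7 V2 arrays above all 4 DP arrays, where 4.79% of all genes did and 3.49% lay the other way round. They were Ifit1, Ifit3, Usp18, Irf9, Irf1, Mx1, Oas2, Oasl2, Ddx58, Ddx60, Xaf1, Gbp3 and Irgm1. None of the 35 had all V2 arrays below all DP arrays. In wild-type arrays alone the count was 22 above and 1 below, against 14.4% and 12.8% of all genes. In cKO arrays alone it was 18 above and 0 below, against 9.8% and 11.3%.

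For most of the 35 genes, the 2 arrays shown apart lay nearer the population whose markers they carried. The array labelled DP cKO replicate 5 was nearer the V2 mean for 32 of 35 genes, and reached the V2 range in 12 of the 13 genes that separated the populations. Its Usp18 was 10.47, its Ifit1 8.40 and its Irgm1 8.82. The array labelled V2 WT replicate 5 (immV2) was nearer the DP mean for 27 of 35 genes. It fell within the DP range in 10 of the 13, and between the populations in the other 3. Its Usp18 was 7.95, its Ifit1 6.93 and its Irgm1 7.58. The same counts were not made over all genes, so they do not set the 35 genes apart from other genes. The 13 genes were picked because they separate the populations on the other arrays. With all 13 arrays in their labelled groups, 0 of the 35 genes were called between the populations in either genotype, where 0.0557% of all genes were called in wild type and 0.0354% in knockout. An unadjusted 0.05 was passed by 10 genes in wild type (8.46% of all genes) and by 18 in knockout (8.45%). Usp18 then differed by 2.11 (SE 0.81, adjusted p = 0.515) in wild type and by 1.33 (SE 0.72, adjusted p = 0.667) in knockout.

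**Figure D3:**
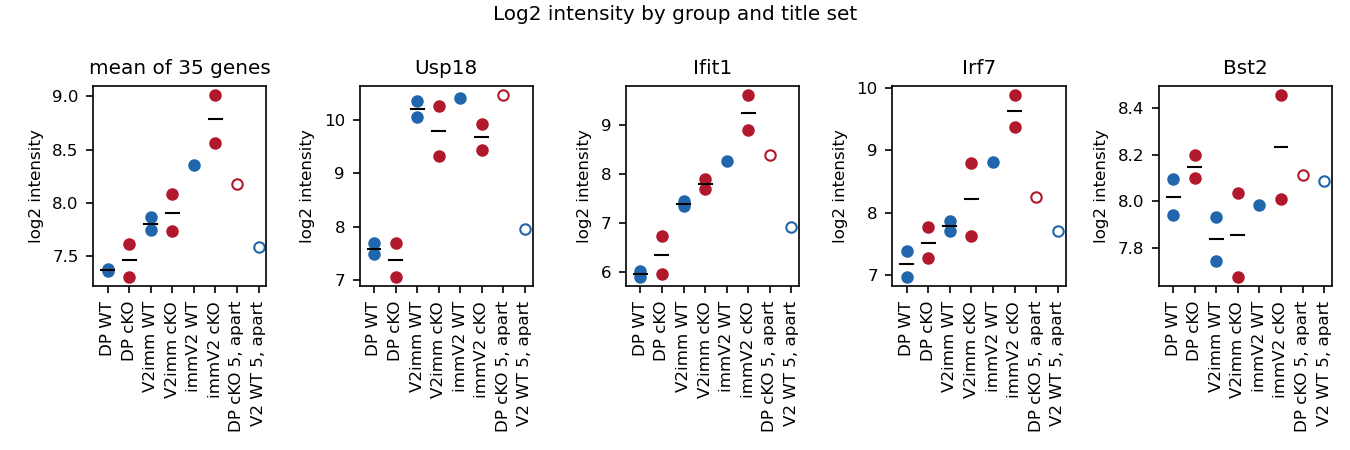
Log2 intensity per array, as the mean of the 35 genes and for Usp18, Ifit1, Irf7 and Bst2, by population, title set and genotype. Filled circles are arrays in the comparisons (blue WT, red cKO), open circles are the 2 arrays shown apart, and bars are means of 2 arrays. Vertical axes differ between panels and do not start at 0. Usp18 separates V2 from DP in both title sets, Irf7 is highest in immV2, and Bst2 overlaps throughout.

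The V2 arrays also differed by title set, a comparison chosen after its values were seen. The mean of the 35 genes was 8.64 ± 0.335 (SD, n = 3) on immV2 arrays and 7.86 ± 0.164 (n = 4) on V2imm arrays, without overlap. Between the sets, 16 of 35 genes were higher in immV2 and 0 lower at the threshold, where 1.4% of all genes were called higher and 1.1% lower. The median difference was 0.738, against -0.079 over all genes. In 23 of 35 genes every immV2 array lay above every V2imm array, against 5.93% of all genes, and 0 lay the other way round (9.0%). Replicate 3 of V2 cKO (immV2) was the highest V2 array for 29 of the 35 genes. How often it was highest over all genes was not counted, so this does not set the 35 genes apart from other genes.

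Of the 16 genes called by title set, 4 were also called by population in wild type (4 of 8 there) and 9 in knockout (9 of 16 there). These comparisons share the V2 arrays, and the calls are set side by side with no test of their overlap. Oas3 rose by 1.66 (SE 0.24, adjusted p = 0.00248), from 6.87 to 7.49 in V2imm to 8.25 to 9.62 in immV2, while DP arrays ran from 6.80 to 7.32. In all, 4 of 5 genes in the OAS and PKR group passed, namely Oas3, Oasl2 (1.23), Eif2ak2 (0.91, SE 0.12, adjusted p = 0.00119) and Oasl1 (0.71). Rsad2, which encodes the radical SAM enzyme viperin, and its neighbour on chromosome 12, the nucleotide kinase gene Cmpk2, differed by 1.43 (SE 0.29, adjusted p = 0.0203) and 1.11 (SE 0.21, adjusted p = 0.0138). On V2imm arrays Rsad2 ran from 5.83 to 6.44 and on DP arrays from 5.55 to 6.45, so V2imm and DP overlapped there. Ddx60 (1.18, SE 0.15, adjusted p = 0.00119), Ifit1 (1.22, SE 0.22, adjusted p = 0.00984), Irgm1 (1.09, SE 0.18, adjusted p = 0.00572) and Irf9 (0.79, SE 0.19, adjusted p = 0.0475) were called by title set and by population in both genotypes. Ifit3, Irf7, Oas3, Oasl2 and Rtp4 were called by title set and by population in knockout. The other 7 were Oasl1, Rsad2, Ifi35, Ifih1, Dhx58, Cmpk2 and Eif2ak2, called by title set and by population in neither genotype. Usp18 (0.01, SE 0.24, adjusted p = 0.982), Irf1 (0.35, SE 0.17, adjusted p = 0.298), Ddx58 (0.54, SE 0.18, adjusted p = 0.149) and Xaf1 (-0.22, SE 0.20, adjusted p = 0.541) were called by population in both genotypes and did not pass by title set. The 95% interval of the title set difference was -0.52 to 0.54 for Usp18.

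**Figure D4:**
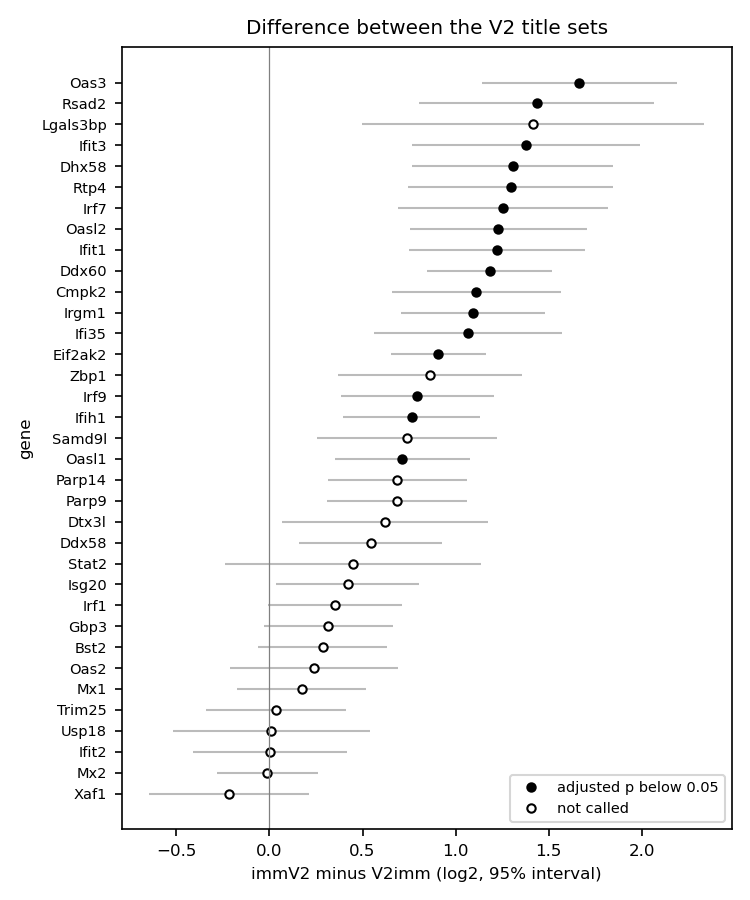
Difference between immV2 and V2imm arrays (log2, horizontal axis) for each of the 35 genes (rows, sorted), with 95% intervals from the fit over all genes. Filled points have an adjusted p below 0.05. Oas3 has the largest difference, and Usp18, Ifit2 and Mx2 lie at 0.

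Other measures moved with title set too. All 20 macrophage and dendritic cell markers had estimates below 0 in immV2, and 7 were called lower: Cd74, H2-Aa, Lyz2, C1qb, Adgre1, Fcer1g and Mpeg1. Their mean level ran from 7.11 to 7.85 on V2imm arrays, from 6.38 to 6.75 on immV2 arrays and from 6.50 to 6.63 on DP arrays. Marker level and the level of the 35 genes ran in opposite order over these title sets, which cannot tell whether they are linked. Adgre1 ran from 4.99 to 5.05 on immV2 arrays and from 5.04 to 5.29 on DP arrays. Lyz2 ran from 5.29 to 6.36 and from 5.52 to 6.06. Both were picked from the 20 markers. The 8 plasmacytoid dendritic cell markers, from the cell type known for the most interferon production, had 0 calls by title set and 3 genes at an unadjusted p below 0.05 (share of all genes not given). Their mean ran from 7.84 to 8.12 on V2 and from 8.44 to 8.50 on DP arrays. Ly6d alone differed by -3.93 in V2 WT against DP WT, while the median difference of the 8 genes was -0.015. V2imm replicate 4 of V2 cKO had the lowest upper quartile of intensity of all arrays, 332.7, and the lowest value of the 7 V2 arrays for 13 of the 35 genes, as many as V2 WT replicate 5 (V2imm). How often either was lowest over all genes was not counted. What part these measures play in the difference between title sets was not tested.

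Each title set was then set against DP on its own, from a fit with 6 means. In wild type, V2imm exceeded DP in 6 called genes (background 2.73% of all genes called higher) and the single immV2 array in 7 (1.7%), with medians of 0.39 and 0.897. In knockout, V2imm exceeded DP in 7 called genes (2.84%) and immV2 in 23 (2.75%), with medians of 0.343 and 1.19. Usp18 differed from DP by 2.62 and 2.83 in wild type and by 2.43 and 2.31 in knockout, for V2imm and immV2 in that order. Ifit1 differed by 1.45 and 2.32 in wild type and by 1.45 and 2.91 in knockout. Irf1, Ddx58, Ddx60, Ifit1 and Usp18 passed in each contrast, but the contrasts of a genotype share their 2 DP arrays, and the wild-type immV2 value rests on 1 array. Oas3 differed from DP by 0.07 (SE 0.28, adjusted p = 0.951) in V2imm cKO and by 2.09 (SE 0.28, adjusted p = 0.000797) in immV2 cKO, and Irf9 did not pass in either V2imm contrast.

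The next comparison asked whether loss of Sox4 changes these genes in V2 cells. None of the 35 was called (0 higher and 0 lower, where 0.0% of all genes were called), with limma at an adjusted p below 0.05. At an unadjusted p below 0.05 there were 8 of 35, 7 higher and 1 lower in cKO, against 3.83% of all genes. The smallest adjusted p was 0.638. Estimates lay above 0 for 31 of 35 genes against 52.1% of all genes, with a median of 0.259 against 0.008. Leaving out replicate 3 of immV2 lowered the median to 0.124 for the cKO array and to 0.14 for the WT array of that number. Samd9l, an antiviral restriction factor that also limits proliferation, had the smallest p. It measured 8.26, 7.25 and 8.49 in V2 WT, 8.77, 8.28, 9.30 and 9.23 in V2 cKO, 8.49 and 8.49 in DP WT and 8.90 and 8.54 in DP cKO. V2 WT and V2 cKO overlapped, with WT replicate 5 (V2imm) lowest, and the difference was 0.78 (SE 0.22, adjusted p = 0.638). Isg20, an RNA exonuclease, was the only 1 of 35 genes with every V2 cKO array above every V2 WT array, where 1.69% of all genes had this, and none lay wholly below (1.76%). Its level was 8.91, 8.71 and 8.96 in V2 WT, 9.23, 9.11, 10.01 and 9.53 in V2 cKO, 8.52 and 8.41 in DP WT and 8.75 and 8.45 in DP cKO. The difference was 0.54 (SE 0.18, adjusted p = 0.905), with a 95% interval of 0.16 to 0.92.

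Ifit1 (0.64, SE 0.22, adjusted p = 0.985), Ifit3 (0.77, SE 0.28, adjusted p = 0.999) and Xaf1 (0.50, SE 0.20, adjusted p = 0.999) came next, all higher in cKO on average. Zbp1 measured 8.93, 8.76 and 9.52 in V2 WT, 9.08, 9.43, 10.31 and 10.17 in V2 cKO, 8.90 and 8.28 in DP WT and 9.35 and 8.47 in DP cKO. The V2 groups overlapped, and the difference was 0.54 (SE 0.23, adjusted p = 0.999). Usp18 was the 1 of the 8 that was lower in cKO, by -0.54 (SE 0.24, adjusted p = 0.999). With the 2 arrays shown apart included, the Usp18 difference was 0.04 (SE 0.66). Irf9 (0.07, SE 0.19), Irf1 (0.11, SE 0.17) and Ddx58 (0.03, SE 0.18) had small estimates, with 95% intervals of -0.34 to 0.49, -0.25 to 0.47 and -0.36 to 0.41.

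The genotype difference was also taken within each title set. In V2imm (2 against 2 arrays) 0 of 35 genes were called against 0.0253% of all genes. There, 1 passed an unadjusted 0.05 (3.5% of all genes), 26 estimates lay above 0 (51.9%) and the median was 0.14. In immV2 (1 WT against 2 cKO arrays) 0 were called against 0.0456% of all genes. There, 7 passed unadjusted (3.01%), 33 lay above 0 (51.8%) and the median was 0.438. The lone immV2 WT array was assumed to vary like the other groups. Ifit3 differed by 0.22 (SE 0.29) in V2imm and by 1.59 (SE 0.35, adjusted p = 0.241) in immV2, Ifit1 by 0.40 (SE 0.27) and 0.99 (SE 0.34), and Samd9l by 0.77 (SE 0.30) and 0.78 (SE 0.37). In the test of the difference between the sets 0 of 35 were called and 1 passed unadjusted, where 0.00506% and 2.24% of all genes did, and the median was 0.316. Of 20 macrophage and dendritic cell markers, 19 had an estimate above 0 in V2 cKO against V2 WT and 0 were called. All 7 γδ thymocyte markers had an estimate below 0 and 0 were called, while 4 passed an unadjusted 0.05 (3.83% of all genes). Blk had the largest difference (-1.35, SE 0.33, adjusted p = 0.348) and Sox13 the smallest p (-1.04, SE 0.23, adjusted p = 0.265), with Maf between them in size (-1.14, SE 0.26, adjusted p = 0.269). Their part in the result was not tested.

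**Figure D5:**
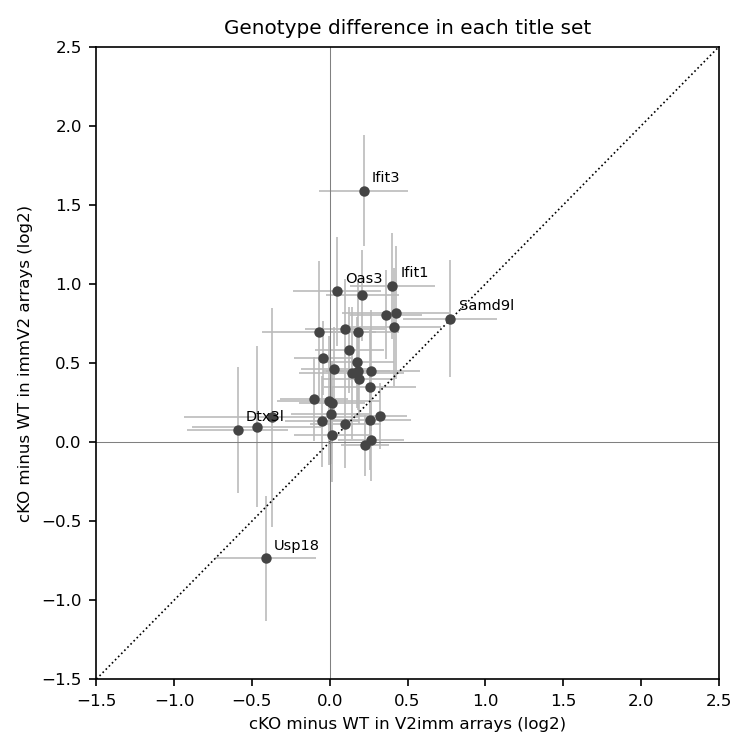
Difference between cKO and WT V2 arrays (log2) for each of the 35 genes in the V2imm set (horizontal axis, 2 against 2 arrays) and the immV2 set (vertical axis, 2 cKO against 1 WT array), with bars of 1 SE. The dotted line marks equal differences. Most points lie above both zero lines, with Ifit3 furthest up and Usp18 below 0 on both axes.

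In DP cells 0 of 35 genes were called between cKO and WT, where 0.0253% of all genes were. One gene, Rtp4, passed an unadjusted 0.05, against 2.71% of all genes, and was lower in cKO by -1.01 (SE 0.33, adjusted p = 1). The 2 DP cKO arrays, at 6.76 and 5.95, lay below the 2 DP WT arrays, at 7.45 and 7.28. The array labelled DP cKO replicate 5 had Rtp4 at 8.91. Estimates lay above 0 for 25 of 35 genes (50.8% of all genes), with a median of 0.138 against 0.003 over all genes. Groups of 2 arrays did not overlap for 10 genes higher and 2 lower in cKO, while 15.8% and 14.0% of all genes did the same. Parp14 measured 8.23, 7.88 and 8.61 in V2 WT, 8.21, 8.27, 9.12 and 8.91 in V2 cKO, 7.45 and 7.73 in DP WT and 8.26 and 7.73 in DP cKO, and its DP difference was 0.40 (SE 0.22, adjusted p = 1). In DP, the WT and cKO arrays of Parp14 overlapped. Ifi35, an interferon-induced leucine zipper protein gene, measured 7.43, 7.35 and 8.34 in V2 WT, 7.12, 8.20, 8.78 and 8.81 in V2 cKO, 7.69 and 7.21 in DP WT and 8.16 and 7.64 in DP cKO. It differed by 0.45 (SE 0.30, adjusted p = 1) in DP, where its groups overlapped. Ifit2 differed by -0.37 (SE 0.25). With 2 arrays a group, single arrays weighed heavily. Without DP cKO replicate 3 the difference was 0.137 for Parp14 and 0.194 for Ifi35, and without DP WT replicate 5 it was 0.209 for Ifi35 and -0.06 for Ifit2. Without DP cKO replicate 4 it was -0.609 for Rtp4, and the median of the 35 genes was 0.243, against 0.051 without DP cKO replicate 3.

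The genotype difference in V2 was then tested against that in DP. It was called for 0 of 35 genes and for 0.0% of all genes, and 2 of 35 passed an unadjusted 0.05, against 1.88% of all genes. These were Rtp4, at 1.27 (SE 0.42, adjusted p = 1), and Ifit3, at 1.17 (SE 0.46, adjusted p = 1). Rtp4 was higher in cKO by 0.26 in V2 and lower in DP (-1.01). Ifit3 was higher by 0.77 in V2 and lower in DP (-0.41), and neither estimate passed. Ifit2 (0.58, SE 0.31) and Samd9l (0.55, SE 0.36) followed. The same contrast states how far the V2 to DP difference varies with genotype, so none of the 8 genes called between the populations in knockout mice alone passed as different between genotypes.

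Other genes of the pathway were taken from lists. Of 15 receptor and signalling genes, 1 rose and 1 fell in V2 WT against DP WT. Ptpn2, a phosphatase that dephosphorylates JAK1, rose by 0.94 (SE 0.23, adjusted p = 0.0288). Socs1, a feedback inhibitor of JAK kinases, fell: it measured 8.50, 8.53 and 8.88 in V2 WT and 8.34, 8.76, 9.03 and 9.41 in V2 cKO, and 10.37 and 9.95 in DP WT and 10.49 and 10.65 in DP cKO. The populations did not overlap and the difference was -1.44 (SE 0.22, adjusted p = 0.00124). Jak1 differed by 0.74 (SE 0.20, adjusted p = 0.0571). In knockout mice Ifngr1, a chain of the interferon-γ receptor, was also lower in V2, by -1.51 (SE 0.22, adjusted p = 0.000997). Ifngr1 measured 11.59, 11.37 and 12.36 in V2 WT and 9.70, 10.12, 11.38 and 11.73 in V2 cKO, and its cKO minus WT difference in V2 was -1.27 (SE 0.20, adjusted p = 0.0628), short of the threshold. The 2 V2imm cKO arrays were the lowest. Set against DP cKO by title set, Ifngr1 was called lower for V2imm cKO and was not called for immV2 cKO. Between the title sets it was called higher in immV2 (limma, adjusted p = 0.00276).

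Among 16 interferon ligand genes, 0 were called between the populations in either genotype or between genotypes in V2, and at an unadjusted p below 0.05 there were 1, 1 and 0. The unadjusted share of all genes is not given for the population comparisons. Ifnb1, the interferon-β gene, ran from 5.55 to 5.82 on V2 and from 5.65 to 5.70 on DP arrays. Ifng, the interferon-γ gene, ran from 6.27 to 6.57 and 6.14 to 6.53. Ifna2 had the smallest p in the wild-type comparison, with a difference of 0.42 (SE 0.17, adjusted p = 0.239).

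Of 21 genes of nucleic acid sensing and induction, 4 rose and 0 fell in V2 WT over DP WT. Samhd1, a dNTP hydrolase that restricts retroviruses, measured 9.44, 9.06 and 10.12 in V2 WT and 9.20, 9.49, 10.44 and 11.31 in V2 cKO, and 5.63 and 5.64 in DP WT and 5.76 and 6.0 in DP cKO. It rose by 4.12 (SE 0.26, adjusted p = 7.34e-07), and every V2 array lay above every DP array. Sting1, the adaptor of the cyclic GMP-AMP pathway, rose by 2.92 (SE 0.30, adjusted p = 4.11e-05) and Aim2, a sensor of double-stranded DNA, by 2.04 (SE 0.32, adjusted p = 0.0017). Sting1 measured 7.63 and 8.12 in DP WT and 9.43 and 9.80 in DP cKO, and its DP cKO minus DP WT difference was 1.74 (SE 0.32, adjusted p = 0.169). Unc93b1, a chaperone of endosomal Toll-like receptors, was the fourth. In knockout mice Samhd1 (4.23), Aim2 (2.25), Sting1 (1.11) and Irf8 (0.64) passed.

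Of 52 further interferon-induced genes, 4 rose and 0 fell in wild-type V2 over DP: Ifi203 (1.98, SE 0.25, adjusted p = 0.000272), Ifitm2 (1.79, SE 0.26, adjusted p = 0.000987), Trim30a (1.71, SE 0.24, adjusted p = 0.000619) and Shisa5 (1.02, SE 0.19, adjusted p = 0.00652). In knockout mice 11 rose and 1 fell. In V2 cKO against V2 WT 0 of the 52 were called, 9 passed an unadjusted 0.05, and Slfn1 (0.51, SE 0.17) and Slfn2 (0.64, SE 0.23), both Schlafen genes, had the smallest p. By title set 6 of the 52 were called higher in immV2 and 3 lower, among them Slfn8, at 9.07 to 9.56 in immV2 against 6.40 to 6.72 in V2imm, and Ifitm3, at 5.70 to 6.61 against 8.11 to 8.89. Ifitm3, a membrane protein that blocks viral entry, thus ran opposite to the 16 called members.

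Markers of other cells were read beside the population comparison. Of 20 macrophage and dendritic cell markers, Fcer1g was higher (0.99, SE 0.19, adjusted p = 0.00778) and Cst3 lower (-0.73, SE 0.19, adjusted p = 0.0446) in V2 WT than in DP WT, 18 were not called, and 6 passed an unadjusted 0.05. In knockout mice Fcer1g was higher, 0 were lower and 6 passed unadjusted. For V2imm alone against DP, Cd74, H2-Aa, Fcer1g and Mpeg1 were higher in each genotype, by up to 4.13 in wild type, and 13 of 20 in wild type and 12 of 20 in knockout passed unadjusted. For immV2 alone 0 were called, with 2 and 1 unadjusted. Of 8 plasmacytoid dendritic cell markers, Ly6d was lower (-3.93, SE 0.32, adjusted p = 7.09e-06). B cell (6 genes), granulocyte (6) and thymic stroma (7) markers had 0 calls in the wild-type comparison, and 2, 0 and 2 genes at an unadjusted p below 0.05. Shares of all genes at an unadjusted 0.05 are not given for these contrasts, so the unadjusted counts have no background here. The part of such cells in the population difference was not tested.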

How the data were processed

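RNA was extracted with TriZol and labelled with a whole-transcript kit, per the labels. The submitters' processing notes name RMA and Affymetrix Power Tools, and the deposited intensity values, 1 per probe set, are linear. Versions are not given in the sources used here. Values ran from 6.16 to 23800, and their log2 was taken here.

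Of 24922 probe sets, 21425 had 1 symbol in the platform annotation, 1399 several and 2098 none listed. Through the gene ID 21347 matched RefSeq (GRCm38.p6), and 0 symbols changed. The brightest probe set on average per symbol left 19752 genes.

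Groups came from the titles. In V2imm titles the knockout is written without its gene, and was read as Sox4 cKO. Tests were made in limma (version 3.58.1, under R 4.3.3) by lmFit and trended eBayes, over 11 arrays, with 4 group means and a covariate for title set. A fit of 6 means gave differences within title sets. Each test was two-sided and called at 0.05 after the Benjamini-Hochberg procedure had been applied to the p-values of 19752 genes. The fit was tested on simulated data. Members, lists and the choice of arrays were made with earlier results of these data known.

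Genes named with values on every array were the 8 members with the largest called difference in V2 WT against DP WT, the 6 with the smallest p in V2 cKO against V2 WT, and the 4 each with the smallest p in DP and in the test between populations. Irf7, Irf9, Stat2, Irf1, Ifih1, Ddx58 and Usp18 were added by role. From each other list came up to 3 genes by p in the wild-type comparison and up to 2 in the V2 genotype comparison. Genes named beside these were chosen after their values were seen. Correlations between members were planned and are not given, because the V2 arrays fall into 2 sets of under 6.

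Alternatives were all 13 arrays, no title covariate, quantile normalisation, median centring, log2 of the value plus 50, a filter on dim genes, the mean of a gene's probe sets, no intensity trend, each population alone, a replicate block and leaving out each array. Same-numbered arrays were compared by the correlation of their deviations from group means (0.179 for DP number 3, -0.222 for V2imm). In groups of 2 arrays the deviations mirror each other, so these correlations cannot decide whether arrays were paired. The main fit did not take the numbers as pairs. Plots used matplotlib 3.10.9 (Python 3.11.15).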

Additional observations from a re-analysis of the deposited data

Results flagged for a closer look

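Of 72 groups of 4 or more arrays tested by gene, 5 held an array whose gap to its nearest neighbour was large against the range of the group (Dixon's test). Chance gives about 1 in 20. In V2 cKO, replicate 4 (V2imm) was low for Stat2, at 7.45 against 8.94 to 9.19 on the other 3 arrays, and for Lgals3bp, at 8.75 against 11.29 to 11.71. Among the 4 arrays labelled V2 WT, replicate 5 (immV2), which carried DP markers, was low for Usp18, at 7.95 against 10.06 to 10.41. In the same labelled group, replicate 3 (immV2) was high for Irf7, at 8.81, and for Ifih1, at 7.20. It was the immV2 array that carried V2 markers.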

How the results depend on the processing

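Directions mostly held in 50 differences of single genes. These were members called between populations or with the smallest p in the other comparisons, with a few added by role. Because they were picked in these same data, most were likely to keep direction in advance. Recomputed under each alternative that applied, they gave 1041 values. Of these, 941 kept direction and side of the threshold, 89 lost the call, 6 gained it and 5 changed sign, in 3 of the 50 differences. With all 13 arrays, 0 members were called between populations in either genotype and 1 between title sets. Without the title covariate the V2 to DP counts were 4 in WT and 6 in cKO. V2imm alone gave 7 against DP in cKO, with a median of 0.343, and immV2 alone a median of 1.19. Leaving out single arrays gave 6 to 14 members in WT, 9 to 21 in cKO and 7 to 22 by title set. The count in WT was 14 or 13 when V2 cKO replicate 4 or 5 of V2imm was left out. The count in cKO was 9 without DP cKO replicate 4. By title set it was 7 and 10 when V2 cKO replicate 3 or 4 of immV2 was left out, 8 when V2 WT replicate 3 of immV2 was, and 9 when V2 WT replicate 5 of V2imm was. The cause was not tested. Sign changed for Usp18 in V2 cKO against V2 WT (0.04 with 13 arrays). It changed for Stat2 in V2 WT against DP WT (-0.022 without V2 WT replicate 4 (V2imm), -0.016 with V2imm alone, and from -0.067 to 0.322 over single arrays left out, with -0.067 without DP WT replicate 3 and 0.256 without DP WT replicate 5). It changed for Stat2 in cKO as well (0.063 without V2 cKO replicate 4 (V2imm)). None of these was called.

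A replicate block on same-numbered arrays within a title set left 0 members called in V2, in DP and between them, with medians of 0.308, 0.237 and 0.058, and called 34, 8 and 4 of all genes. Comparisons between populations or title sets could not be fitted with it. Over the settings run, all genes called ranged from 11 to 1575 between populations in WT, 7 to 1632 in cKO, 207 to 4358 by title set, 0 to 44 for genotype in V2, 0 to 14 in DP and 0 to 4 between them. Dim probe sets limit Mx1, Mx2 and Ddx60 in DP.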

Other observations

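The genes that differed most between the V2 title sets are not interferon-stimulated genes alone. Klk1b22, a kallikrein gene, ran from 10.39 to 11.19 on V2imm arrays, from 4.93 to 5.45 on immV2 arrays and from 5.02 to 5.21 on DP arrays. BC018473 and Gdpd3 had the same order. Cd96, a receptor of T and NK cells, ran from 8.23 to 8.97 on V2imm arrays, from 11.50 to 11.70 on immV2 arrays and from 11.48 to 11.97 on DP arrays. Trim12a ran from 5.59 to 5.88, from 8.90 to 10.16 and from 8.35 to 9.76 in the same order of sets, and Dzip1 from 5.99 to 6.71, 9.05 to 9.34 and 9.92 to 10.60. For Klk1b22, BC018473, Gdpd3, Cd96, Trim12a and Dzip1 the V2imm arrays thus stood apart from both other sets. Rgs18, Gm4759 and Cysltr2 were higher on immV2 than on V2imm arrays. These genes were chosen after their values were seen.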
